A study of Mus musculus with 18 samples.

Results

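Regulatory T (Treg) cells of the peripheral blood were compared with Treg cells of the lung, over the genes that the lung Treg libraries express. A gene belonged to the comparison when its mean over the 3 lung libraries was at least 10 TPM (a length-normalized share of a library's transcripts). This left 8094 genes, called lung-expressed genes here, of the 16694 genes tested and the 55487 gene IDs in the tables. Both groups held Treg cells, labelled as such, that were freshly prepared from wild-type mice without treatment, with 3 peripheral blood libraries and 3 lung libraries among 18 libraries from 6 sites. The labels give no sorting gates, no age or sex of the mice, and no number of animals per library, and they do not say whether replicates came from separate animals. P-values therefore measure only the spread between these libraries, which may be technical. The lung values that chose the genes are also one arm of the comparison, so counts over the lung-expressed genes are descriptions and support nothing on their own.

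Treg cells are CD4+ T cells under the transcription factor Foxp3 that restrain immune responses. Circulating cells are known for receptors of lymph node entry and tissue exit such as Ccr7 and S1pr1, and Treg cells of non-lymphoid organs for effector receptors, the interleukin-33 receptor (Il1rl1) and repair factors such as amphiregulin (Areg). Cyclic AMP is a second messenger made when receptors coupled to a stimulatory G protein switch on adenylyl cyclase. It acts through protein kinase A and the factor CREB, whose recognition sequence, the cAMP response element, lies before genes such as Crem, which encodes a repressor of the same family.

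TPM keeps no library depth. The blood libraries listed between 19365 and 19661 genes above 0 and the lung libraries between 15219 and 15606. The spread between replicates (coefficient of variation, median over the lung-expressed genes) was 6.77% in blood and 15.3% in lung, so a low gene was measured less precisely in lung. The blood libraries carried transcripts of other blood cells. Markers of neutrophils summed to between 20152.1 and 21378.0 TPM in blood, between 735.5 and 896.5 in lung and between 22.0 and 79.8 in lymph node, and 11 of the 16 markers were lung-expressed. Markers of monocytes and macrophages summed to between 13595.3 and 13896.9 TPM in blood and between 2331.8 and 2587.3 in lung, with 15 of 20 lung-expressed. All 12 platelet genes fell below the lung threshold and were left out by it, at a sum of 4025.2 to 4112.9 TPM in blood and 6.5 to 36.2 in lung. The lung libraries carried transcripts of lung cells. Markers of alveolar macrophages, the resident macrophages of the air spaces, summed to between 180.1 and 214.5 TPM in lung and between 17.5 and 19.4 in blood. Markers of lung epithelium summed to between 240.2 and 316.2 TPM in lung and between 19.8 and 26.0 in blood. Scgb1a1 alone made up most of this lung sum. Of the 10 tested epithelial genes, 5 were lower in blood, 2 higher and 3 not called (limma adjusted p under 0.05). In blood 5 of these 10, Sftpc among them, were listed at 0 in each of the 3 libraries. The 20 general T cell genes used for scaling summed to between 5181.1 and 5269.8 TPM in blood and between 7839.4 and 8505.5 in lung. In bulk RNA, fewer cells of a type and less RNA per cell cannot be told apart.

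**Figure D1:**
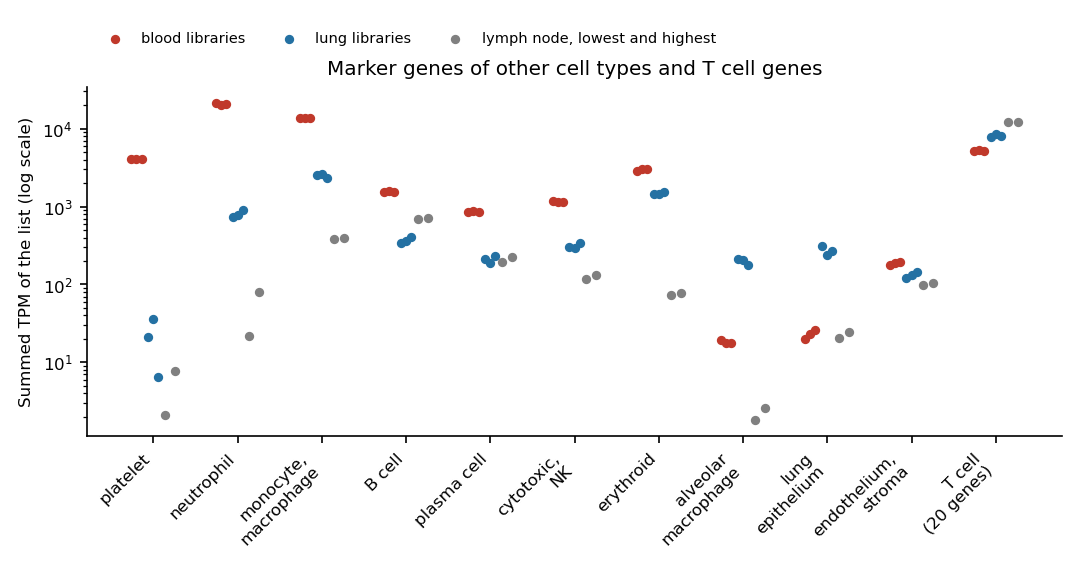
Summed TPM (y axis, log scale) of the marker genes of 10 other cell types and of 20 general T cell genes (x axis), 1 point for each of the 3 blood libraries and the 3 lung libraries, with the lowest and highest lymph node library beside them. The 3 blood libraries lie above the 3 lung libraries for platelet, neutrophil, monocyte, B cell, plasma cell, cytotoxic, erythroid and endothelial or stromal genes, and below them for alveolar macrophage, epithelial and T cell genes. A sum can differ from most genes of its list. Of 11 tested endothelial or stromal genes, 5 were lower in blood, 2 higher and 4 not called (limma adjusted p under 0.05).

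The comparison of blood with lung is therefore given on a pair of scales, TPM as deposited and TPM scaled to the sum of these 20 T cell genes. The second scale raises nearly every gene in blood, by a median of 0.63 log2 units over the lung-expressed genes, and moves the median difference of all tested genes from 0.12 to 0.66. A lung-expressed gene called lower in blood on the T cell scale, or higher on the deposited scale, was called in that direction on both.

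On the deposited scale, 1954 of the 8094 lung-expressed genes (24.1%) were higher in blood and 2281 (28.2%) were lower, at a limma adjusted p under 0.05. Of all 16694 tested genes, 26.4% were higher and 17.3% lower (43.7% in either direction), and since the choice of genes used the lung values nothing is read from this contrast. After T cell scaling 4780 were higher and 818 lower, beside 52.1% higher and 7.45% lower among all genes tested on that scale. The split into higher and lower thus turned on the scale, from 46.1% of the calls higher in blood to 85.4%. On both scales and by at least 1 log2 unit, 713 were higher and 404 lower, beside 16.0% and 4.27% of all tested genes. These 713 and 404 genes are called the higher and the lower set below. The 3 blood and the 3 lung libraries did not overlap for 4869 lung-expressed genes (60.2%), against 52.0% of all tested genes. The median difference over the lung-expressed genes was -0.06 as deposited and 0.57 after T cell scaling. Counts and medians of the gene lists below are to be read beside these shares and medians.

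A single lung library was also used to choose 8006 to 8045 genes, and the other 2 were compared with blood. Of these genes, 1928 to 1969 were higher and 2132 to 2147 lower. The lung libraries share the lung level on which the rule selects, so this does not remove the effect of the choice. Among the 8600 tested genes under 10 TPM in lung, 28.6% were higher and 6.98% lower. Of the lung-expressed genes, 7489 also reached 10 TPM in lymph node, where the neutrophil sum was lowest of the 6 sites. Of these 7489, 610 belonged to the higher and 251 to the lower set, beside 713 and 404 of the 8094 lung-expressed genes. Of all 16694 tested genes, 16.0% and 4.27% met the same limits.

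**Figure D2:**
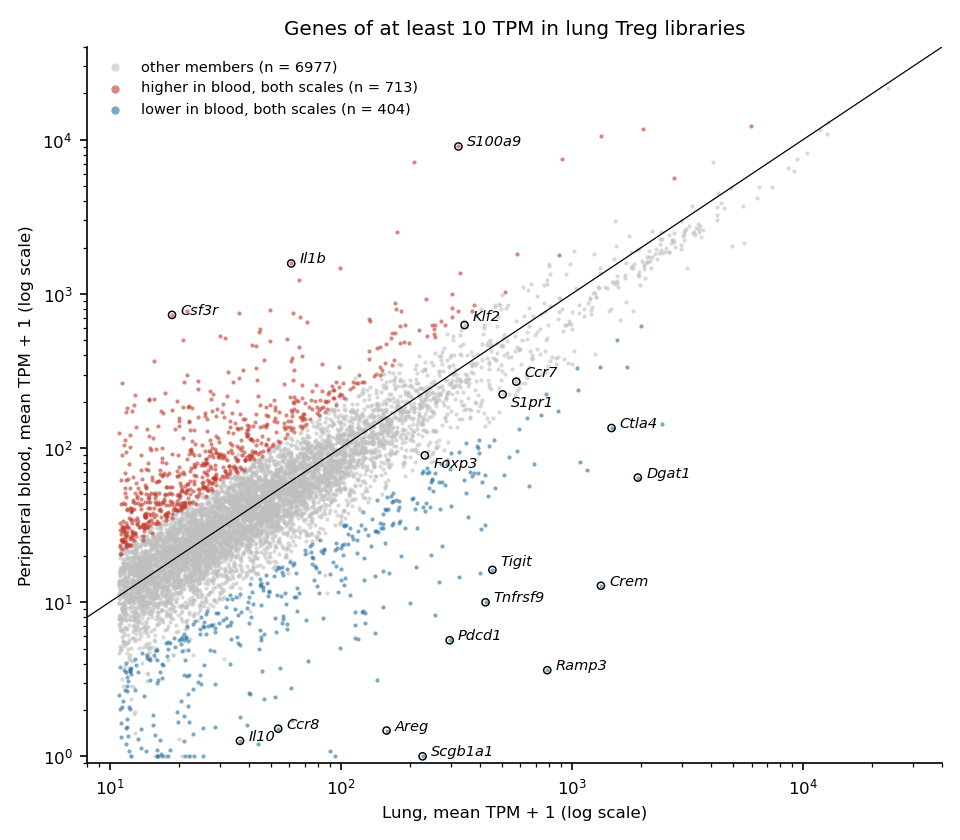
Mean TPM + 1 of each lung-expressed gene over 3 lung libraries (x axis) and 3 blood libraries (y axis), both on log scales, with the diagonal marking equal values. Red points are the 713 genes of the higher set and blue points the 404 of the lower set, grey points are the other 6977, and Ctla4, Crem and Ramp3 lie far below the diagonal while Klf2 lies above it.

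Apart from Scgb1a1, a gene of airway epithelium, the genes with the largest differences towards lung were led by Ramp3, Crem, Areg and Calca, which are tied to peptide hormone receptors, cAMP and tissue repair. Ramp3 (ENSMUSG00000041046), an accessory protein that carries the calcitonin receptor-like receptor to the surface and sets its ligand preference, had 3.05, 2.94 and 1.86 TPM in blood and 794.3, 769.7 and 783.6 TPM in lung. The difference was -7.78 log2 units (SE 0.18, limma adjusted p 2.97e-14), and -7.32 after T cell scaling. Ramp3 was also low outside the lung, at 2.76 ± 0.25 TPM in lymph node (SD, n = 3) and 4.09 ± 1.22 in spleen, while liver had 92.97 ± 5.48. Crem (ENSMUSG00000063889) had 6.87, 15.47 and 13.00 TPM in blood and 1300.5, 1364.7 and 1345.0 TPM in lung, a difference of -6.78 (SE 0.20, limma adjusted p 3.19e-13). No blood library came near a lung library for either gene, and lung held the highest mean of the 6 sites for both.

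Areg (ENSMUSG00000029378), the growth factor amphiregulin, was at 0.40, 0.57 and 0.45 TPM in blood and at 138.9, 174.7 and 157.5 TPM in lung. Its difference was -6.74 (SE 0.18, limma adjusted p 1.21e-13), and liver with 91.61 ± 9.78 TPM (SD, n = 3) stood nearest to lung. Calca (ENSMUSG00000030669), whose products are calcitonin and the calcitonin gene-related peptide, was listed at 0 in every blood library and reached 61.9, 93.5 and 124.0 TPM in lung. The gene-related peptide is a ligand of receptors built on the product of Calcrl, whose ligand preference depends on the accessory protein. Binding to a receptor with Ramp3 was not measured here. Calcrl itself had 15.8, 18.2 and 17.2 TPM in blood and 9.75, 12.4 and 16.5 TPM in lung. These ranges overlapped and the difference did not pass the test (0.41, limma adjusted p 0.134). Nr4a3, a nuclear receptor induced by antigen receptor and cAMP signals, had 2.10, 2.28 and 1.98 TPM in blood and 140.9, 130.2 and 156.3 TPM in lung (-5.52, SE 0.12, limma adjusted p 2.12e-14).

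Areg, Nr4a3 and Calca are shown with the 250 bases before their start site, because their transcripts were low in blood and each window holds the cAMP response element, in full for Areg and as its half-site alone for Nr4a3 and Calca. The sequences are from RefSeq on build GRCm38.p6, written 5′ to 3′ on the strand of the gene, with TGACGTCA, the full element, and its half-site TGACG on either strand (read as TGACG or CGTCA) in capitals. A half-site inside a full element is part of the same run of capitals. Areg lies on the plus strand (chr5:91139349-91139598), Nr4a3 on the plus strand (chr4:48045055-48045304) and Calca on the minus strand (chr7:114636358-114636607).
Areg: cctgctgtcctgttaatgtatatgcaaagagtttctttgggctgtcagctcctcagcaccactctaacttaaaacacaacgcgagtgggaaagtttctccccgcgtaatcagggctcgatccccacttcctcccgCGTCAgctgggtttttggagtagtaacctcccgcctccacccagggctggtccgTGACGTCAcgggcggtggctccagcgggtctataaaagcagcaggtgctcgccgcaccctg
Nr4a3: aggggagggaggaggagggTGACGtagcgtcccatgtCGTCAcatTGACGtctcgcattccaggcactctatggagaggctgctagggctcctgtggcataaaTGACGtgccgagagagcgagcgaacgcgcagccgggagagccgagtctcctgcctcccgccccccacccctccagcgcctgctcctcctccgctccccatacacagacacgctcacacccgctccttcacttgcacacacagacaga
Calca: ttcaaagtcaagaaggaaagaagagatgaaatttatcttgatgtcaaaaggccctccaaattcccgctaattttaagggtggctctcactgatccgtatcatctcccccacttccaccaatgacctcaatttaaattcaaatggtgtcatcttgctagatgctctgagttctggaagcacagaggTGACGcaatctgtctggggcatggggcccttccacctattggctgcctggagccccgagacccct
The Areg window holds 1 full element, which begins 61 bases before the start site, and 1 half-site. The Nr4a3 window holds 4 half-sites and the Calca window 1.

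Over windows of 300 bases (250 before and 50 after the start), the full element was found in 16 of the 287 genes of the lower set that have a RefSeq window (5.57%) and in 6 of 539 of the higher set (1.11%). It was found in 250 of the 6238 lung-expressed genes with a window (4.01%) and in 549 of all 27025 genes of the table (2.03%). The half-site on either strand was found in 39.4% of the lower set, 27.3% of the higher set, 39.4% of all lung-expressed genes and 23.0% of all genes. The lower set thus held the half-site as often as lung-expressed genes in general. A match is a description of letters in a window, not a site in use.

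Of 22 lung-expressed genes of cAMP and G protein signalling, 12 were lower in blood, 5 higher and 5 not called, with a median of -0.59. After T cell scaling 9 were lower and 10 higher (median 0.05), so the sign of the median turned with the scale. Over all lung-expressed genes the median moved from -0.06 to 0.57, so the list lay below it on both scales. Adora2a, the adenosine receptor that raises cAMP in T cells, had 20.7, 18.9 and 17.0 TPM in blood and 216.4, 184.5 and 145.9 TPM in lung (-3.19, SE 0.18, limma adjusted p 5.58e-10). Adcy7, an adenylyl cyclase that makes cAMP, was instead higher in blood (1.09, limma adjusted p 2.78e-08). The phosphodiesterase Pde4d, which breaks down cAMP, differed by -3.19 and the salt-inducible kinase Sik1 by -1.63. Among the regulators that end G protein signals, Rgs16 differed by -3.98 and Rgs1 by -2.33, and both were called lower on both scales. Creb1, which encodes CREB, was called higher by 0.32, and Prkacb, a catalytic subunit of protein kinase A, was not called (0.04).

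**Figure D3:**
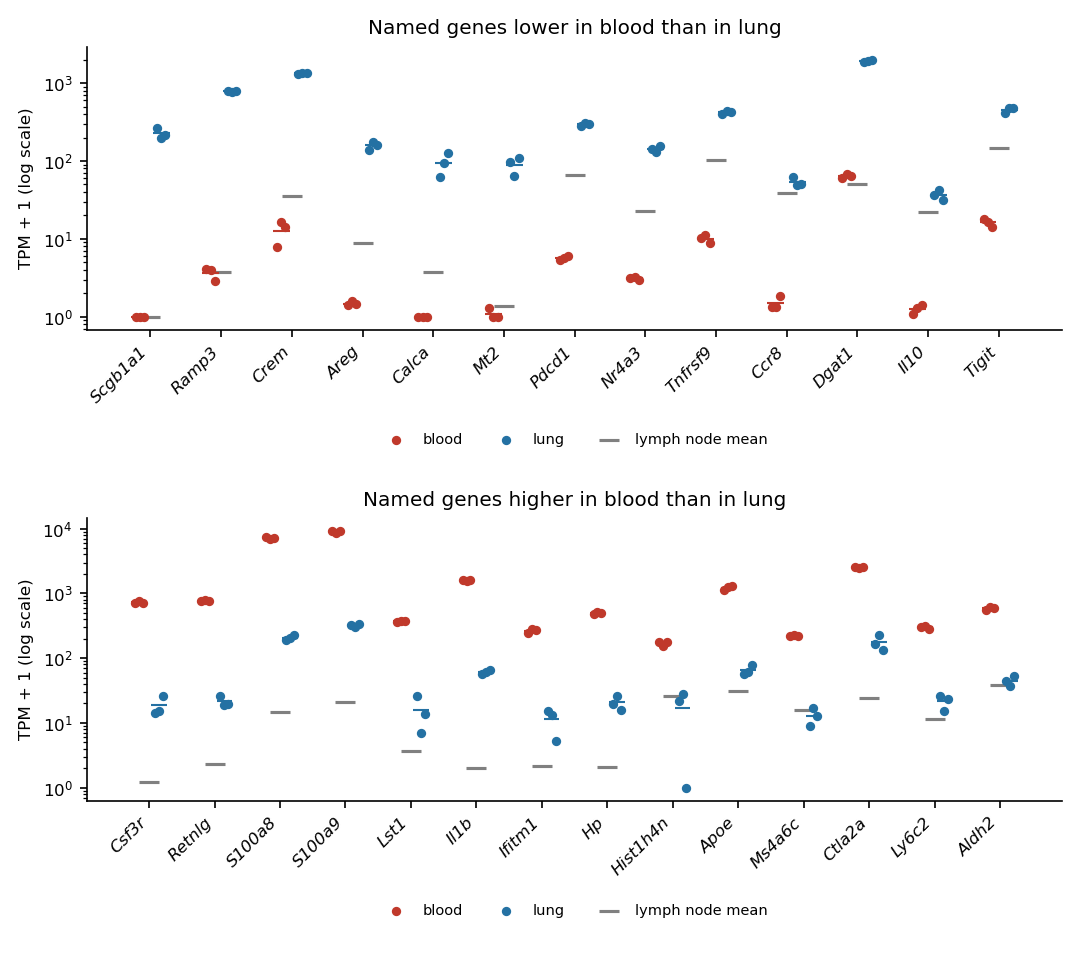
TPM + 1 (y axis, log scale) in each of the 3 blood and 3 lung libraries for 13 genes lower in blood and 14 genes higher in blood, chosen by the size of their difference; short coloured lines are group means and the grey line is the lymph node mean. Scgb1a1 and Calca are at 0 TPM in every blood library, and Hist1h4n is at 0 TPM in 1 lung library.

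Inhibitory and costimulatory receptors, which tune T cell activation at the cell surface, were mostly lower in blood on the deposited scale. Of 20 lung-expressed genes of this kind, 13 were lower, 3 higher and 4 not called (median -0.81). After T cell scaling 8 were lower and 6 higher (median -0.20). Of all 8094 lung-expressed genes, 28.2% were lower and 24.1% higher, and after T cell scaling 818 were lower and 4780 higher. Pdcd1, the inhibitory receptor PD-1, had 4.29, 4.64 and 5.06 TPM in blood and 276.0, 309.5 and 300.6 TPM in lung (-5.71, SE 0.07, limma adjusted p 8.02e-17). Tigit, another inhibitory receptor, had 17.0, 15.4 and 13.3 TPM in blood and 411.0, 476.1 and 470.9 TPM in lung (-4.81, SE 0.10, limma adjusted p 6.81e-15). Both had higher means in the other organs than in blood too, from 31.85 TPM in bone marrow to 139.52 in liver for Pdcd1 and from 138.49 in bone marrow to 317.96 in liver for Tigit. Among the members of the TNF receptor family, Tnfrsf9 (4-1BB) had 9.17, 10.1 and 7.72 TPM in blood and 403.6, 433.8 and 430.3 TPM in lung (-5.41, SE 0.16). Tnfrsf4 (OX40) differed by -3.53 and the costimulatory receptor Icos by -3.74, and for neither gene did blood and lung libraries overlap. The 3 receptors higher in blood were so on both scales. These were Vsir (VISTA), with 195.1, 229.0 and 216.2 TPM against 69.1, 56.4 and 60.3 in lung (1.77, SE 0.10, limma adjusted p 6.51e-10), Cd226 (1.73) and Btla (0.99). Vsir is also made by myeloid cells, whose marker sums were higher in blood. The part of other cells in the levels of these 3 receptors was not tested. Cd27 was not called on the deposited scale (0.00).

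Genes of Treg identity went in several directions. Of 17 lung-expressed genes, 9 were lower in blood, 3 higher and 5 not called (median -0.54). The median turned to 0.09 after T cell scaling, beside 0.57 over all lung-expressed genes. Choosing genes by the mean of blood and lung gave a median of -0.17 over 19 genes. Foxp3 had 85.4, 88.4 and 92.2 TPM in blood and 222.0, 237.0 and 232.3 TPM in lung, without overlap. The difference was -1.37 (SE 0.07, limma adjusted p 2.3e-10) and -0.73 after T cell scaling, where it still passed (limma adjusted p 1.01e-07). Ctla4, which strips costimulatory ligands from antigen-presenting cells, differed more, with 141.5, 132.4 and 127.8 TPM in blood and 1553.9, 1460.4 and 1442.6 TPM in lung (-3.46, SE 0.06, limma adjusted p 7.43e-16). Lrrc32 (GARP), the docking receptor for latent TGF-beta, differed by -2.74, Tnfrsf18 (GITR) by -2.60 and Ikzf2 (Helios) by -1.22, all called lower on both scales. Il2ra, the alpha chain of the interleukin-2 receptor, was higher in blood, at 99.8, 99.7 and 102.2 TPM against 72.6, 83.9 and 72.3 (0.40, SE 0.10, limma adjusted p 0.00499), whereas its beta chain Il2rb was lower (-1.30). Within this receptor the subunits thus differed in opposite directions on both scales. The ectoenzymes that turn ATP into adenosine also differed from each other. Entpd1 (CD39) had 73.7, 86.9 and 74.97 TPM in blood and 19.1, 19.2 and 36.3 TPM in lung (1.68, SE 0.32, limma adjusted p 0.000461), and Nt5e (CD73) was lower in blood (-1.90). Marker sums of neutrophils, monocytes and B cells were higher in blood. The part of such cells in Entpd1 and the other genes of this list higher in blood was not tested. Ikzf4 and Nrp1 were not called on the deposited scale (0.00 and -0.06).

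All 28 lung-expressed genes of the effector and tissue list were called, 23 lower and 5 higher in blood, with a median of -2.02. After T cell scaling 19 were lower and 5 higher (median -1.41). This list therefore kept its direction on both scales. Il1rl1, the interleukin-33 receptor ST2 of tissue Treg cells, had 11.5, 12.5 and 13.4 TPM in blood and 290.2, 255.0 and 254.0 TPM in lung (-4.31, SE 0.13, limma adjusted p 4.13e-13). Il10, the suppressive cytokine, was at 0.07, 0.30 and 0.41 TPM in blood and at 36.0, 41.0 and 30.1 TPM in lung (-4.86, SE 0.20, limma adjusted p 1.83e-11). The transcription factors of the list were lower as well, among them Rora (-4.06), Bhlhe40 (-3.75), Gata3 (-2.64), Batf (-2.29) and Maf (-1.96), whereas Irf4 differed by -0.45 and its value turned to 0.17 after T cell scaling. Klrg1, a receptor of highly differentiated cells, was lower too (-2.17). The genes higher in blood were Anxa1 (2.67), Fgl2 (2.33), Cd44 (1.26), Lgals3 (0.99) and S100a11 (0.93). Fgl2, a secreted suppressive protein, had 221.1, 211.5 and 221.4 TPM in blood and 37.1, 45.6 and 45.4 TPM in lung. Anxa1, an abundant protein of neutrophils, had a mean of 276.23 TPM in blood, 42.64 in lung, 4.50 in lymph node and 555.81 in bone marrow, where the neutrophil sum was 47815.8 to 48244.7 TPM. The part of other cells in these 5 genes was not tested.

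**Figure D4:**
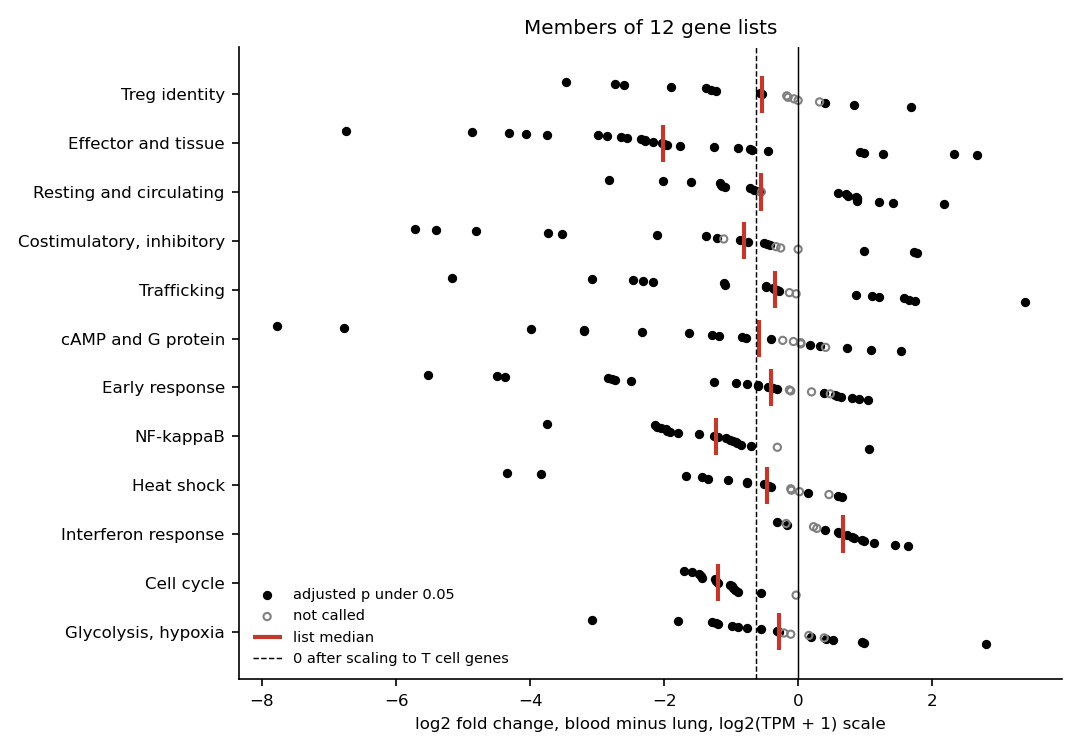
Difference between blood and lung in log2(TPM + 1) (x axis) for each lung-expressed gene of 12 lists (y axis). Filled points passed an adjusted p under 0.05 and open points did not, red bars are list medians, and the dashed line marks where 0 lies after T cell scaling; the medians of the effector list (-2.02), the NF-kappaB list (-1.23), the cell cycle list (-1.20) and the receptor list (-0.81) lie left of it.

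Genes of resting and circulating T cells divided evenly, with 10 of 21 higher and 10 lower in blood. The median was -0.55, and 0.07 after T cell scaling, when 10 were higher and 7 lower. Without lung replicate 3 it was -0.33. Klf2, a factor of T cell quiescence that drives S1pr1, was higher in blood and had 604.9, 604.5 and 671.4 TPM in blood and 328.2, 342.6 and 357.3 TPM in lung (0.87, SE 0.07, limma adjusted p 4.5e-08). The receptors of recirculation S1pr1 and Ccr7 went the other way. S1pr1, the receptor of exit from tissue, had 219.4, 225.7 and 221.1 TPM in blood and 524.9, 492.2 and 486.7 TPM in lung (-1.17, SE 0.06, limma adjusted p 2.33e-10). Ccr7, which guides cells into lymph nodes, had 255.2, 281.5 and 269.7 TPM in blood and 565.0, 580.8 and 578.4 TPM in lung (-1.09, SE 0.07, limma adjusted p 4.42e-09). Lung had the highest mean of the 6 sites for both, and both remained lower in blood after T cell scaling (-0.53 and -0.45). The interleukin-7 receptor Il7r was likewise lower in blood (-2.02), while the interleukin-6 receptor Il6ra was higher by 2.18. Among the transcription factors, Tcf7 was higher (0.75) and Satb1 (-1.60) and Myb (-2.82) were lower, on both scales. The survival gene Bcl2 was higher by 1.21. For Il6ra and the other genes of this list higher in blood, the part of other blood cells was not tested.

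Of 22 lung-expressed trafficking receptors, 13 were lower in blood, 7 higher and 2 not called (median -0.34; 6 lower and 12 higher after T cell scaling, median 0.30). Chemokine receptors of tissue Treg cells made up many of those lower on both scales. Ccr8 had 0.33, 0.34 and 0.85 TPM in blood and 60.7, 48.1 and 49.4 TPM in lung (-5.17, SE 0.16, limma adjusted p 5.15e-13), and Ccr4, Cxcr6 and Cxcr3 differed by -3.07, -2.31 and -2.17. Itgae, the CD103 integrin chain that binds epithelial E-cadherin, differed by -2.46. The integrins of adhesion to vessel walls were higher in blood. Itgb2 had 544.7, 571.9 and 549.2 TPM in blood and 160.2, 169.1 and 169.0 TPM in lung (1.74, SE 0.05, limma adjusted p 4.13e-13), its partner Itgal was higher by 1.10, Itga4 by 1.66 and the selectin ligand Selplg by 0.86. Ccr2 was higher by 1.20, and Ccr1 by 3.38. Ccr1, Ccr2 and Itgb2 are also genes of monocytes and neutrophils, whose sums were higher in blood. The part of other blood cells in these and the other genes of this list higher in blood was not tested. Cd69, a receptor that holds cells in tissue by removing S1pr1 from the surface, was not called (-0.13).

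Nuclear factor kappaB (NF-kappaB) genes, namely subunits of this factor, its inhibitors and its targets, were lower in blood with few exceptions. Of 20, all lung-expressed, 18 were lower in blood, 1 higher and 1 not called (median -1.23), and after T cell scaling 14 were lower and 1 higher (median -0.59). Tnfaip3, the feedback inhibitor A20, had 76.9, 80.1 and 82.5 TPM in blood and 1082.4, 1099.1 and 1082.1 TPM in lung (-3.75, SE 0.05, limma adjusted p 2.26e-16). Liver was close to lung, at 960.93 ± 60.34 TPM (SD, n = 3), and lymph node close to blood, at 63.94 ± 1.20. Among the subunits, Nfkb2 differed by -2.14, Relb by -1.96 and Rel by -1.48, and among the inhibitors Nfkbiz by -2.04 and Nfkbia by -1.79. Rela differed by -0.71 and by -0.08 after T cell scaling. The gene higher in blood was Tnip2 (1.06, SE 0.22, limma adjusted p 0.00106), an A20-binding inhibitor.

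Early response genes, which are induced within minutes of stimulation, separated into members higher and members lower in blood. Of 26, 15 were lower, 7 higher and 4 not called (median -0.41), and after T cell scaling 9 were lower and 12 higher (median 0.23). Fos had 835.9, 852.5 and 843.3 TPM in blood and 472.2, 472.8 and 513.2 TPM in lung (0.80, SE 0.08, limma adjusted p 6.24e-07). Egr1, Klf4 and Dusp1 were higher with it, by 0.91, 1.04 and 0.64. Klf4 had means of 34.24 TPM in bone marrow and 0.67 in lymph node, and Fos of 2197.81 and 48.71. Neutrophil sums were 47815.8 to 48244.7 TPM in bone marrow, 22.0 to 79.8 in lymph node and 188.0 to 380.0 in liver. Early response sums were 10266.7 to 10425.8 TPM in bone marrow, 2313.5 to 2346.1 in lymph node and 12186.8 to 13112.2 in liver. These sums cover all 28 genes of the list. The part of other cells in the early response genes was not tested. Several phosphatases and transcription factors were lower on both scales. The dual specificity phosphatase Dusp10 had 13.5, 14.9 and 12.2 TPM in blood and 333.3, 313.2 and 327.1 TPM in lung (-4.49, SE 0.12, limma adjusted p 1.97e-13), and Dusp4 and Dusp5 differed by -4.37 and -2.83. The nuclear receptor Nr4a2 differed by -2.73, Gadd45b by -2.78 and the AP-1 subunit Fosl2 by -2.50. Nr4a1 turned with the scale, since it was called lower as deposited (-0.32) and higher after T cell scaling (0.32).

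Among 18 heat shock genes, whose products fold proteins under stress, 11 were lower in blood, 3 higher and 4 not called (median -0.47; 6 lower and 9 higher after T cell scaling, median 0.17). Hspa1b had 8.15, 9.03 and 9.25 TPM in blood and 202.4, 206.5 and 187.1 TPM in lung (-4.35, SE 0.08, limma adjusted p 3.45e-15), while Hspa1a, a copy so alike that the pair share reads, differed by -3.83. Lung was not the extreme for Hspa1b, since liver had 2470.31 ± 260.73 TPM (SD, n = 3). The constitutive chaperones differed less, Hsp90ab1 by -0.51 and Hspa8 by 0.15.

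Interferon response genes were the only one of the 12 lists whose lung-expressed genes had a median above 0 on the deposited scale. Of 16 lung-expressed genes, 11 were higher in blood, 2 lower and 3 not called (median 0.67). After T cell scaling all 16 were higher (median 1.30), as were 4780 of the 8094 lung-expressed genes (median 0.57). The GTPase Ifi47 had 195.4, 203.2 and 201.7 TPM in blood and 72.9, 65.6 and 54.0 TPM in lung (1.64, SE 0.08, limma adjusted p 1.9e-10). Ifi203, a gene of the interferon-inducible p200 family, had 282.5, 260.2 and 263.8 TPM in blood and 132.5, 130.5 and 106.3 TPM in lung (1.13, SE 0.07, limma adjusted p 5.05e-09). Lymph node and spleen had higher means of Ifi47 than blood, at 233.32 ± 4.94 and 206.41 ± 10.19 TPM against 200.12 ± 4.13 (SD, n = 3), and the spleen mean lay within its spread of the blood mean. Over the whole list of 22, summed TPM ran from 2303.7 to 2333.5 in blood, from 1683.2 to 1831.1 in lung and from 2471.9 to 2525.5 in lymph node. Lung and bone marrow (1701.3 to 1757.6) held the lowest sums, and blood did not exceed lymph node. The 2 genes lower in blood, Ifi27l2a (-0.32) and Igtp (-0.17), turned to 0.32 and 0.47 after T cell scaling.

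Cell cycle genes were mostly lower in blood. Of 15 lung-expressed genes of a list of 24, 14 were lower and none was higher (median -1.20). After T cell scaling 10 were lower and 1 higher (median -0.58). Over all 24, 18 were lower and 6 not called (median -0.99), and 12 were lower and 2 higher after scaling. Among those under 10 TPM in lung, Birc5, Cdc20, Plk1, Tpx2 and Cenpf were not called. Plk1 was called higher in blood after T cell scaling (0.88). Top2a, the topoisomerase of dividing cells, had 6.77, 6.39 and 6.39 TPM in blood and 18.4, 31.8 and 17.0 TPM in lung (-1.59, SE 0.23, limma adjusted p 3.64e-05). Pcna, the replication clamp, had 138.3, 132.4 and 135.6 TPM in blood and 360.8, 315.7 and 276.6 TPM in lung (-1.22, SE 0.07, limma adjusted p 2e-09). Tuba1b, which encodes a tubulin, was not called (-0.03).

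Of 21 lung-expressed genes of glycolysis and hypoxia, 11 were lower in blood, 6 higher and 4 not called (median -0.28; 7 lower and 12 higher after T cell scaling, median 0.36). Hif1a, the oxygen-regulated transcription factor, had 52.9, 53.4 and 56.0 TPM in blood and 469.9, 463.0 and 465.4 TPM in lung (-3.08, SE 0.08, limma adjusted p 4.8e-14). The glucose transporters went apart. Slc2a3 had 139.9, 136.3 and 137.1 TPM in blood and 23.2, 17.1 and 16.6 TPM in lung (2.81, SE 0.10, limma adjusted p 4.36e-12), while Slc2a1 was lower (-1.20). Platelets and neutrophils also express Slc2a3, and bone marrow had 141.97 ± 3.42 TPM (SD, n = 3); their part in its level was not tested. Ldha, which makes lactate, differed by -1.29 and Gapdh by -0.90, and Pkm was higher by 0.52.

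The genes with the largest differences towards blood were mainly genes of neutrophils and monocytes. Csf3r, the receptor of granulocyte colony-stimulating factor, had 698.2, 771.1 and 720.9 TPM in blood and 13.2, 14.4 and 25.4 TPM in lung (5.35, SE 0.40, limma adjusted p 2.18e-08). S100a8, a calcium-binding protein of neutrophils, had 7545.4, 6866.6 and 7141.4 TPM in blood and 187.4, 202.8 and 230.8 TPM in lung (5.11, SE 0.34, limma adjusted p 4.7e-09), and its partner S100a9 was higher by 4.81. Il1b (4.69), Retnlg (5.17), Lst1 (4.77), Hp (4.62) and Ifitm1 (4.69) completed the 8 genes with the largest differences. Of the 11 lung-expressed neutrophil markers 8 were higher in blood and none was lower (median 3.81), and of the 15 of monocytes and macrophages 12 were higher and 1 lower (median 2.99), the exception being Chil3 (-1.50). All 8 lung-expressed B cell genes (median 2.33) and all 4 of cytotoxic cells (median 1.96) were higher in blood, for example Gzma, the granzyme of killer cells, at 357.6, 299.5 and 330.9 TPM against 34.1, 47.1 and 45.5. A lung mean of 10 TPM thus kept many genes that define other blood cells, and the part of those cells in the higher set was not tested.

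Restricting the rule to genes of at least 10 TPM in lymph node still named S100a8 and S100a9, with Hist1h4n, Apoe, Ms4a6c, Ctla2a, Ly6c2 and Aldh2. Ctla2a, a cysteine protease inhibitor, had 2550.2, 2453.4 and 2567.4 TPM in blood and 166.7, 225.3 and 131.4 TPM in lung (3.88, SE 0.16, limma adjusted p 2.39e-11), against a mean of 23.21 TPM in lymph node and 63.34 in bone marrow. Apoe, the lipid carrier apolipoprotein E, had 1139.9, 1249.0 and 1296.2 TPM in blood and 56.8, 60.0 and 77.6 TPM in lung (4.23, SE 0.19). Hist1h4n was listed at 21.0, 26.9 and 0 TPM in the lung libraries and 174.2, 155.4 and 176.4 in blood. Replication histones have near-identical copies and lack a poly(A) tail, so that its value is uncertain. The corresponding genes lower in blood were Crem, Pdcd1, Nr4a3, Tnfrsf9, Ccr8, Dgat1, Il10 and Tigit. Dgat1, an enzyme of triglyceride synthesis, had 58.8, 67.5 and 63.8 TPM in blood and 1876.1, 1928.3 and 1986.6 TPM in lung (-4.91, SE 0.08, limma adjusted p 5.52e-16), and lung stood apart from spleen (52.77) and liver (458.41) as well.

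On the lung side, 2 of the leading genes belong to other tissue or to metal handling. Scgb1a1, the secretoglobin of airway club cells, was listed at 0 in every blood library and had 264.1, 196.8 and 215.0 TPM in lung. Sftpc, the surfactant protein of alveolar epithelium, was also at 0 in blood and had 25.2, 20.2 and 14.9 TPM in lung. All 7 lung-expressed alveolar macrophage genes were lower in blood (median -4.21), with Car4 and Krt79 listed at 0 in every blood library. The rule chose these 7 by their lung level. The other 3 of the 10 markers were not called, with means in blood and lung of 3.33 and 4.67 TPM for Marco, 7.08 and 4.93 for Siglecf and 0.36 and 0 for Ear6. After T cell scaling Siglecf was called higher in blood (1.15). The part of alveolar macrophages and epithelial cells in other genes of the lower set was not tested. Mt2, a metallothionein that binds zinc and copper, was listed at 0.28, 0 and 0 TPM in blood and at 95.3, 63.5 and 107.9 TPM in lung (-6.34, SE 0.83, limma adjusted p 1.12e-05).

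Where blood and lung stood among all 6 sites was described by group means. In the lower set, lung was the highest of the 6 sites for 341 of 404 genes (84.4%), blood was the lowest for 215 (53.2%), and both held for 167. In the higher set, blood was the highest for 468 of 713 genes (65.6%), lung was the lowest for 414 (58.1%), and both held for 201. Among all lung-expressed genes, lung was highest for 24.2%, blood lowest for 25.3%, and both held for 7.01%. Blood was highest for 14.9% of them, lung lowest for 24.7%, and both held for 4.04%. The sets were chosen on blood and lung values, so these shares describe them and test nothing.

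The sets were also followed in 2 pairs of sites outside the blood and lung comparison, in 2 fits of 6 libraries each. These libraries entered neither the rule nor the differences that define the sets, but they shared in the estimate of spread behind the calls. Between liver and lymph node, 185 of the 380 tested genes of the lower set (48.7%) were higher in liver and 20 (5.26%) lower at a limma adjusted p under 0.05, with a median of 0.67. Over all genes tested in that pair 7.65% were higher and 16.0% lower, and over all lung-expressed genes 10.4% and 19.9%, with a median of -0.21. After T cell scaling, 227 of the 380 (59.7%) were higher and 9 lower (median 0.94), beside 13.3% higher and 6.26% lower of all genes tested and a median of 0.09 over the lung-expressed genes. With sets taken from the 3 blood and 3 lung libraries alone, 183 of 382 (47.9%) were higher on the deposited scale. The lower set therefore lay towards liver on both scales, and its 185 genes made up 22.2% of the 833 lung-expressed genes higher in liver. No test of the difference between these shares was run.

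Of 698 tested genes of the higher set, 70 were higher and 206 (29.5%) lower in liver, with a median of -0.32 beside -0.21 over all lung-expressed genes, and after T cell scaling 109 of 697 (15.6%) were higher and 97 (13.9%) lower, with a median of -0.02. The sites differed in other transcripts. Erythroid markers summed to 10946.6 to 11986.7 TPM in liver and to 74.2 to 76.9 TPM in lymph node, and early response genes to 12186.8 to 13112.2 and 2313.5 to 2346.1 TPM. Heat shock genes summed to 13163.2 to 13677.1 TPM in liver and to 5723.6 to 5807.4 TPM in lymph node, and neutrophil markers to 188.0 to 380.0 and 22.0 to 79.8 TPM. Their part in these shares was not tested.

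Between bone marrow and spleen, 357 of 713 genes of the higher set (50.1%) were higher in bone marrow (median 0.34) and 101 (14.2%) lower, beside 25.3% higher and 9.55% lower of all genes tested in that pair. The lower set gave 163 of 382 higher (42.7%, median 0.34) and the other lung-expressed genes 23.3%, and all lung-expressed genes had a median of 0.12. After T cell scaling 82.6% of the higher set and 69.7% of the lower set were higher in bone marrow, beside 76.2% of all lung-expressed genes and 62.3% higher and 2.92% lower of all genes tested. On that scale the median was 0.84 for the higher set, 0.80 for the lower set and 0.62 over all lung-expressed genes. Neutrophil markers summed to 47815.8 to 48244.7 TPM in bone marrow and to 550.8 to 737.6 TPM in spleen, and their part in these shares was not tested.

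**Figure D5:**
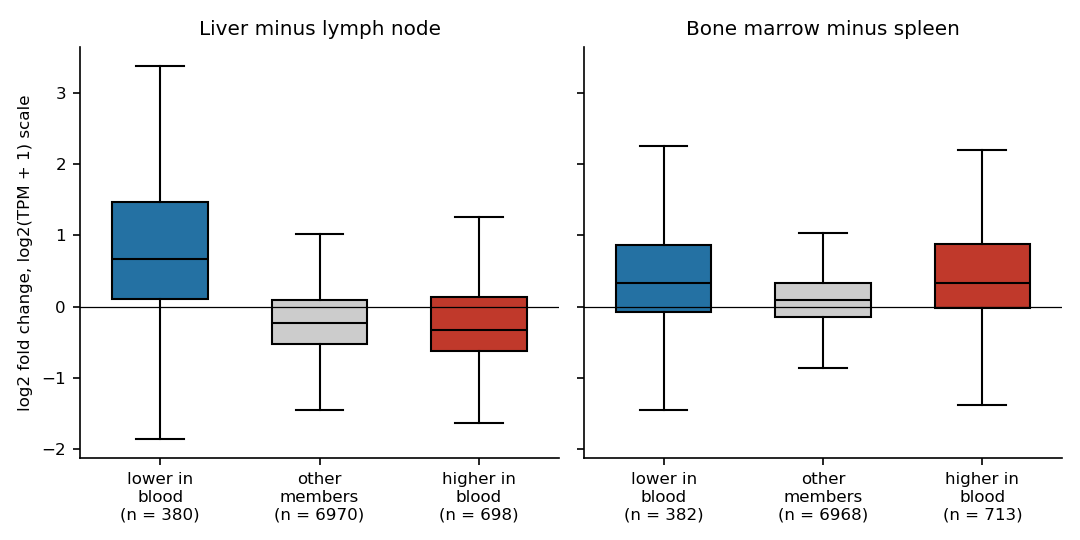
Difference in log2(TPM + 1) (y axis) between liver and lymph node (left) and between bone marrow and spleen (right) for the lower set, the other lung-expressed genes and the higher set (x axis, with the number tested). Boxes span the quartiles with the median as a line, and whiskers reach the farthest gene within 1.5 times the box height; on the deposited scale shown, the lower set has a median of 0.67 between liver and lymph node and the higher set -0.32.

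At the threshold itself, the 5 genes just inside were Akap12, Serpina3f and Gm10175, with lung means that round to 10 TPM, Gpn1 (10.01) and Sh3tc1 (10.02), and their blood means were 3.66, 1.5, 10.48, 12.77 and 8.94 TPM in that order. The 5 genes just outside were Ankrd6, whose lung mean falls short of the threshold by less than rounding shows, Ccdc69, Dnajc30 and Trav15-1-dv6-1 (9.99 each) and Zfp523 (9.98), with blood means of 1.09, 19.89, 9.14, 6.77 and 4.74 TPM. Genes on the 2 sides of the threshold therefore did not separate in their blood values. Of the lung-expressed genes, 58 had a blood mean under 1 TPM and 18 were listed at 0 in every blood library.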

How the data were processed

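Poly(A) RNA of Treg cells was made into directional libraries with the NEBNext Ultra II kit, per the labels' protocols. The authors deposited 1 table of TPM values per library. STAR, RSEM and the build mm10 are named, per the submitters' processing notes, without versions or roles. Use of strand in counting is not given in the sources used here, so overlapping genes and near-identical copies are uncertain. Symbols matched 55141 of 55487 IDs, and no pair of tables was identical. TPM keeps no depth, so no counting error is given.

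Differences were tested with limma 3.58.1 (R 4.3.3; trend and robust moderation) on log2(TPM + 1), which understates changes of low genes. All 18 libraries entered 1 model with a mean per site. A gene was tested when 1 or more sites averaged 1 TPM or above, Benjamini-Hochberg adjusted over all of them, and called at 0.05. The fit was also run on simulated data in which few genes differed between blood and lung and all sites shared the spread of a gene. Such data cannot judge calls where the scale shifts or the spread differs between sites. The lung-expressed genes and the lists were chosen with earlier results of these data known. Named genes were the 8 per direction with the largest difference, called and without overlap, among all lung-expressed genes and among those of at least 10 TPM in lymph node (predicted genes and receptor segments left out), genes of the lists, markers, and 5 genes on each side of the threshold. Alternatives were other pseudocounts, filters, thresholds, scalings, weights, a replicate block and libraries left out. Whether replicate numbers pair blood with lung libraries is not known. Some results are not reported here.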

Additional observations from a re-analysis of the deposited data

How the results depend on the processing

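Scaling to T cell genes moved the counts most, to 4780 higher and 818 lower among the lung-expressed genes, and to 4610 and 623 instead of 1835 and 2015 among those of at least 10 TPM in lymph node. It also turned 7 list medians, to 0.09 for Treg identity, 0.07 for resting and circulating genes, 0.30 for trafficking receptors, 0.05 for cAMP signalling, 0.23 for early response, 0.17 for heat shock and 0.36 for glycolysis and hypoxia. The median over all lung-expressed genes moved with them, from -0.06 to 0.57. Requiring also a bone marrow mean no higher than that of lymph node, chosen after seeing the data, left 4592 genes with 1004 higher and 1244 lower, from fewer genes. Leaving out 1 library gave 1710 to 1917 higher and 1988 to 2193 lower, and 1598 to 1798 and 1746 to 1934 among the lymph node-expressed genes. Deviations of blood and lung libraries with the same replicate number were hardly correlated (0.040, -0.056 and 0.006). This cannot decide whether such libraries share an animal, which the labels do not give. A replicate block gave 1927 higher and 2247 lower, and 1806 and 1980. Under the other alternatives the counts stayed within 1.5 times, from 1369 (threshold of 20 TPM) to 2622 (blood and lung mean of 10 TPM) higher and from 2010 to 2505 lower. All 37 genes named for their size kept direction and call in the 518 alternatives run, and of 204 list medians 176 moved by less than the spread. Genes of low TPM in lung are limited by its replicate spread. The T cell scale and the 6-library sets in the pairs of other sites were added after seeing the data.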

Other observations

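Abundant gene classes differed as well. Of 82 lung-expressed ribosomal protein genes, 75 were called lower in blood and none higher (median -0.37), but after T cell scaling 75 were higher and none lower (median 0.27), so their direction is not settled by these data. They held between 15.9% and 16.4% of the TPM in blood, between 20.7% and 21.2% in lung and 24.1% in lymph node. The 15 mitochondrial genes gave 2 higher and 3 lower calls (median -0.11), and 12 higher and none lower after T cell scaling (median 0.53), with 9.37% to 9.52% of the TPM in blood and 8.09% to 8.92% in lung. Both lung-expressed metallothionein genes were lower in blood on both scales (median -5.40).

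Lung-expressed genes under 10 TPM in lymph node, or with more transcript in bone marrow than in lymph node, were left out. This rule was chosen after the values were seen. The largest differences towards blood were then those of Prg4, Ptpn6, Ms4a4c, Zbtb7b, Filip1l, Gngt2, Treml2 and Slfn1. Marker sums of monocytes and B cells were higher in blood, and the part of such cells in these 8 genes was not tested. Zbtb7b, which encodes the CD4 lineage factor ThPOK, had 99.9, 95.1 and 105.2 TPM in blood and 10.3, 11.3 and 12.2 TPM in lung (3.05, SE 0.14, limma adjusted p 9.53e-11). Its means in lymph node (134.17 TPM), spleen (98.72), liver (91.88) and bone marrow (134.17) were near or above that of blood, so that lung alone was low. Ptpn6, the phosphatase SHP-1 that damps receptor signals, had 367.7, 379.0 and 375.5 TPM in blood and 65.8, 41.9 and 28.7 TPM in lung (3.09, SE 0.18, limma adjusted p 1.23e-09), with 244.70 TPM in lymph node. Slfn1, a gene of the Schlafen family, had 399.8, 399.3 and 390.2 TPM in blood and 70.3, 62.4 and 68.0 TPM in lung (2.55, SE 0.07, limma adjusted p 1.48e-13), and blood held the highest of the 6 means.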
